A study of Rattus norvegicus with 6 samples.

Results

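Forskolin-treated C6 glioma cells carried far more RNA of the cytokine genes Il11, Il6 and Csf3 than vehicle-treated cells, and more of Lif and Clcf1, while the specific receptors for Il11, Lif and Csf3 stayed at or near 0. The genes described here are 10 of the 32623 genes in the deposited table: the ligands Il6, Il11, Lif, Clcf1 and Csf3, the receptor chains Il6st, Il6r and Il11ra1, the transcription factor Stat3 and its inhibitor Socs3. They were found by gene symbol, and each symbol had 1 row. They were chosen from the known function of the family and selected on their forskolin against vehicle values in these same libraries. Their differences are therefore given as a description. They were part of the all-gene fit, but no test result is read for them, and tests are reserved for genes outside this set.

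C6 is an established rat glioma cell line. The cells were grown in serum-containing medium and received either forskolin (FSK), a plant diterpene that activates adenylyl cyclase and so raises cAMP, or the solvent DMSO, both for 24 h. The FSK dose is not given in the sources used here. Total RNA of 3 FSK and 3 DMSO libraries was sequenced, and the libraries held 72.1 to 80 M counts. CPM denotes counts scaled by library total and TMM factor, and serves to compare libraries. FPKM, the authors' value per kilobase of transcript, serves to compare genes.

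The IL-6 family cytokines signal through the shared receptor chain gp130, the product of Il6st. IL-6 and IL-11 first bind their own alpha receptors, encoded by Il6r and Il11ra1, whereas LIF joins gp130 to the LIF receptor. CLCF1 acts through the CNTF receptor. G-CSF, the product of Csf3, is a related cytokine with a receptor of its own. All of these receptors activate JAK kinases, which phosphorylate STAT3. STAT3 then turns on genes that include Socs3, whose product feeds back on the receptor. In the brain the family is best known for its part in astrocyte differentiation and reactive gliosis.

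Promoter sequences from RefSeq (build GRCr8) were at hand for 6 of the 10 genes, namely Il6, Il11, Il6st, Il6r, Stat3 and Socs3. The pair below is shown because these 2 genes had the largest fold differences among the 10. Each window runs from 250 bases before to 50 after the annotated start, 5′ to 3′ on the strand of the gene. Capitals mark matches to the letters TGACGTCA (the cAMP response element, CRE), to its core TGACG, to the AP-1 letters TGACTCA or their reverse complement TGAGTCA, to an NF-kB pattern (GGG and CC spaced by 5 bases), to the C/EBP pattern TTNNGNAAT and to the STAT pattern TTCNNNGAA, searched on both strands.
Il6, chr4:5894526-5894825, minus strand: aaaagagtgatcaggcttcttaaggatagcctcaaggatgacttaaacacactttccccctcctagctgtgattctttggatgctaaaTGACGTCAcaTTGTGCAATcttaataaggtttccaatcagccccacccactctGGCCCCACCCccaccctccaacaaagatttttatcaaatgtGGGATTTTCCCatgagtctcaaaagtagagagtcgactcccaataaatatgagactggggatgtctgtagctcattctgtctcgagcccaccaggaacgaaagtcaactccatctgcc
Il11, chr1:78098372-78098671, plus strand: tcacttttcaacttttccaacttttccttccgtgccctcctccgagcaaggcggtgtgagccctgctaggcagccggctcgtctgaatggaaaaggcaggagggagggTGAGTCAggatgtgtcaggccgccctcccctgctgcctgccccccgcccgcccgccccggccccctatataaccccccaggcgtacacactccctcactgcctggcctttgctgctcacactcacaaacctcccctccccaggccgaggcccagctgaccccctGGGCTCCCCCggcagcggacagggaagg

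The Il6 window held 1 full CRE, whose first base lies 162 bases before the start. A C/EBP match began 152 bases before the start, and overlapping NF-kB matches began 68 bases (forward) and 67 bases (reverse) before it, with a further one 109 bases before it. The CRE contains the core on both strands. Of 33469 promoter windows of this length in the table, 1.83% held the full CRE, 21.2% the core, 12.3% the C/EBP pattern and 47.3% the NF-kB pattern. Among the 6 windows, the full CRE was found in Il6 alone, and Il6r held the core. The Il11 window held 1 AP-1 match, TGAGTCA, 142 bases before the start, and 4.63% of all windows hold that motif. It also held an NF-kB match 23 bases into the transcript. None of the 6 windows held the STAT pattern, which 8.87% of all windows contain. The table places Il6 on the plus strand of Rnor_6.0 and RefSeq places it on the minus strand of GRCr8. All gene positions given hereafter use Rnor_6.0. These matches describe letters and not bound sites, and binding was not measured.

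Il11 had the largest fold difference of the 10 genes. Its cytokine is made by stromal and glial cells and acts on fibroblasts and progenitors. Il11 (ENSRNOG00000017386, chr1:72635267-72643255 on Rnor_6.0, plus strand) stood at 1.04, 0.832 and 1.31 CPM in the 3 DMSO libraries and at 53.2, 49.4 and 50.0 CPM in the 3 FSK libraries. The lowest FSK library was 37.7 times the highest DMSO library. The ratio of the means was 47.9 and the fitted log2 fold change 5.58 ± 0.17 (SE, n = 3 per group), the rank 42 from the top among 14166 tested genes.

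Il6 encodes the founding cytokine of the family, which astrocytes release in inflammation. Il6 (ENSRNOG00000010278, chr4:3043231-3047807, plus strand on Rnor_6.0) was low in DMSO, with 13, 15 and 12 counts (0.179, 0.184 and 0.145 CPM). The FSK libraries had 445, 363 and 443 counts (5.83, 5.11 and 5.82 CPM). All FSK libraries lay far above all DMSO libraries, with a ratio of the means of 33 and a log2 fold change of 5.03 ± 0.22. Its level after treatment was still modest: 5.09 ± 0.375 FPKM, above 42.7% of tested genes, against 28.7 ± 1.44 FPKM for Il11, above 77.1%.

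Csf3, which encodes the granulocyte colony-stimulating factor, reached the highest level per length of the 10 genes. Csf3 (ENSRNOG00000008525, chr10:86616785-86619157, plus strand) had 5.7, 5.57 and 4.11 CPM in DMSO and 135, 134 and 138 CPM in FSK. The FSK libraries differed from each other by a coefficient of variation of 1.33%, against 17.2% in DMSO. The ratio of the means was 26.5 and the log2 fold change 4.73 ± 0.13. In FPKM it moved from 3.95 ± 0.628, above 36.2% of tested genes, to 99.9 ± 0.773, above 92.9%.

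Lif was already abundant without forskolin and Clcf1 moderately so. LIF keeps progenitors undifferentiated in some settings and drives astrocyte fate in others. Lif (chr14:84482674-84500642) had 74, 73.7 and 72.1 CPM in DMSO and 165, 188 and 187 CPM in FSK, a ratio of 2.46 (log2 fold change 1.30 ± 0.06). Clcf1 (chr1:219468675-219472654), which encodes a cardiotrophin-like ligand of the CNTF receptor, had 19.9, 16.6 and 16.4 CPM in DMSO. It had 64.8, 58.8 and 58.3 CPM in FSK, a ratio of 3.44 (log2 fold change 1.78 ± 0.10). For both genes every FSK library was above every DMSO library.

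**Figure D1:**
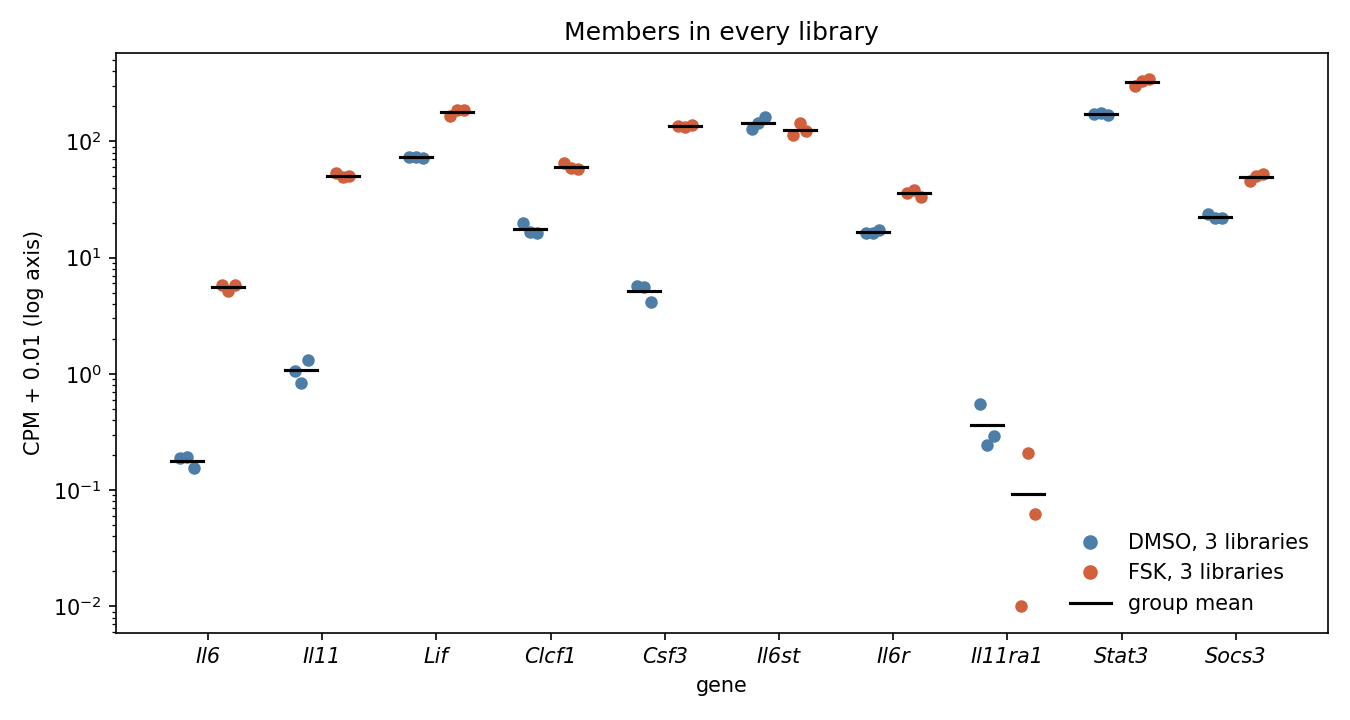
CPM of the 10 genes in each library on a log axis, with 0.01 added so that the single 0 can be drawn; points are libraries and bars are group means. Il6, Il11 and Csf3 show the widest gaps between FSK and DMSO, Il6st overlaps, and Il11ra1 is near the bottom in both groups.

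The make-up of the ligand RNA differed between the groups. The 5 ligand genes together summed to 45.4 ± 1.06 FPKM in DMSO and 236 ± 0.934 FPKM in FSK (SD, n = 3). Lif made up 72.5 ± 1.89% of that sum in DMSO and 32.6 ± 1.97% in FSK. Csf3 made up 8.68 ± 1.24% in DMSO and 42.3 ± 0.491% in FSK, which put it first. Il11 went from 1.38 ± 0.346% to 12.1 ± 0.651%, and Il6 from 0.344 ± 0.0419% to 2.15 ± 0.166%. Clcf1 had 17.1 ± 1.32% and 10.8 ± 0.804%, a smaller share of a larger sum.

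**Figure D2:**
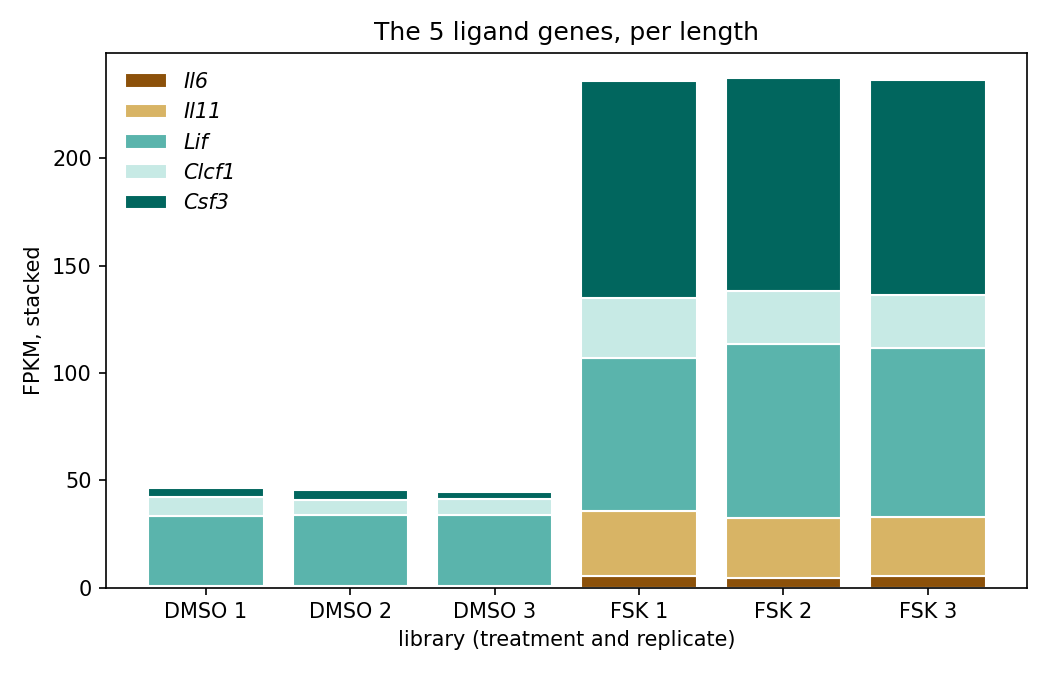
FPKM of the 5 ligand genes stacked for each library, from 0. The 3 DMSO bars total 44.4 to 46.5 FPKM and are mostly Lif, and the 3 FSK bars total 235 to 237 FPKM with Csf3 and Lif as the thickest layers.

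The shared receptor chain was abundant and overlapped between the groups, and the IL-6 receptor was low but higher in FSK. Il6st (chr2:44289393-44314944) had 128, 145 and 161 CPM in DMSO and 113, 143 and 122 CPM in FSK, with a log2 fold change of -0.20 ± 0.11. Il6r (chr2:189205701-189254628), the alpha chain that captures IL-6, had 16.2, 16.4 and 17.2 CPM in DMSO. It had 36.1, 38.4 and 33.4 CPM in FSK, a ratio of 2.17 (log2 fold change 1.12 ± 0.09) with no overlap. Per length, Il6st exceeded Il6r 12.9 ± 1.07-fold in DMSO and 5.19 ± 0.472-fold in FSK.

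Il11ra1, the alpha chain for IL-11, was close to the limit of detection. Il11ra1 (chr5:58151985-58159072) was counted 39, 19 and 23 times in DMSO against 0, 14 and 4 times in FSK, so that in CPM every FSK library was below every DMSO library. These counts correspond to 0.199 ± 0.09 FPKM in DMSO and 0.0436 ± 0.0537 FPKM in FSK. The log2 fold change of -2.06 had an SE of 1.08 and ran from -3.65 to -0.20 over the other settings. Ccl27, on the opposite strand, shares 7 bases with it and had 0 counts in every library.

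Most other receptor genes of the family, Il27ra excepted, were also at or near 0, on a list that was not used to choose the 10 genes. Lifr, the LIF receptor, was counted 15, 45 and 60 times in DMSO against 12, 19 and 0 times in FSK (log2 fold change -1.80 ± 1.06, adjusted p = 0.215). Adjusted p-values are Benjamini-Hochberg values of the edgeR quasi-likelihood test over all 14166 tested genes, with a threshold of 0.05. Where brackets hold a value ± an error and then a single value, these are the log2 fold change, its SE and the adjusted p. Osmr, the oncostatin M receptor, was counted 37, 36 and 21 times in DMSO against 54, 40 and 40 times in FSK (0.58 ± 0.47, adjusted p = 0.368). Csf3r, the receptor for the product of Csf3, had 0 counts in all 6 libraries, which allows up to 0.0422 CPM in any of them. Cntfr, through which CLCF1 acts, had at most 17 counts in a library and was not tested. Of 6 further receptor genes, 3 were tested, and 1 of them fell. That was Il27ra, a chain of the IL-27 receptor, from 3.17 ± 0.471 to 1.62 ± 0.345 CPM (-0.97 ± 0.24, adjusted p = 0.0135). It was named after its values were seen.

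**Figure D3:**
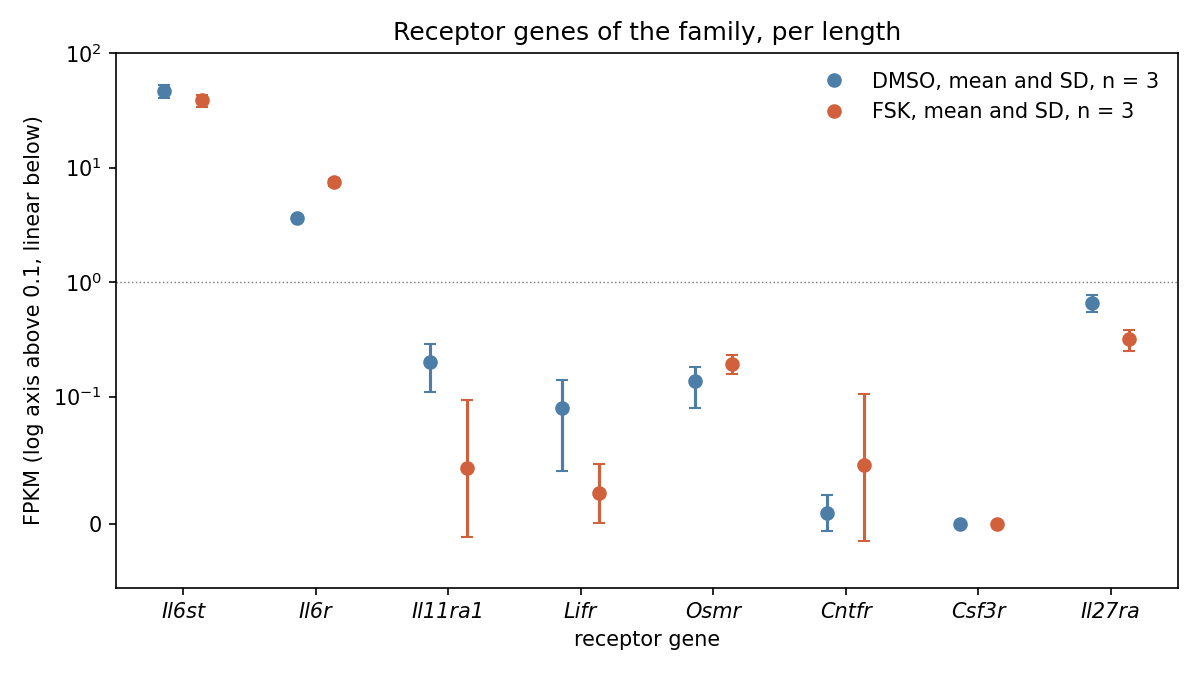
FPKM of 8 receptor genes as mean and SD of 3 libraries, on an axis that is logarithmic above 0.1 and linear below; the dotted line marks 1 FPKM. Il6st and Il6r lie above that line in both groups, and the other 6 lie below it.

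Stat3 and Socs3 were both higher in FSK and had no overlap between groups. Stat3 (chr10:88790408-88842233), the main transcription factor of the pathway, had 171, 177 and 169 CPM in DMSO and 297, 332 and 342 CPM in FSK, a ratio of 1.88 (log2 fold change 0.91 ± 0.06). Socs3 (chr10:106975178-106976040), a STAT3 target and inhibitor of gp130 signalling, had 23.5, 22.1 and 21.8 CPM in DMSO. It had 45.4, 50.1 and 52.7 CPM in FSK, a ratio of 2.2 (1.14 ± 0.08). The ratio of Socs3 to Stat3 FPKM was 0.669 ± 0.0318 in DMSO and 0.783 ± 0.00782 in FSK. RNA levels carry no measure of STAT3 phosphorylation.

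The order of the genes by FPKM differed between the groups. In DMSO it was Il6st, Stat3, Lif, Socs3, Clcf1, Csf3, Il6r, Il11, Il11ra1 and Il6, in which Csf3 and Il6r overlapped, as did Il11ra1 and Il6. In FSK it was Csf3, Lif, Stat3, Socs3, Il6st, Il11, Clcf1, Il6r, Il6 and Il11ra1, in which Lif and Stat3 overlapped. All other neighbours in each order had ranges that did not meet. Csf3 moved from place 6 to place 1 and Il11 from place 8 to place 6.

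All 10 genes passed the expression filter. In 8 of them every FSK library was above every DMSO library, which held for 26.6% of all tested genes, and in 1 every FSK library was below, which held for 26.4%. In the all-gene test, 8 of the 10 had an adjusted p under 0.05 with a higher FSK level, against 19.6% of all tested genes, and nothing is read from this since the genes were selected on this contrast. In whole-culture RNA, a change in RNA per cell and a change in the share of cells that make it cannot be told apart. Glial markers summed to 3791 to 4005 CPM in DMSO and 4774 to 4913 CPM in FSK, with Vim the highest. Of these 8 genes, 4 rose (Gfap, S100b, Sox10 and Vim) and 4 fell (Nes, Cspg4, Slc1a3 and Sox9). Vim went from 2144 ± 53 to 2696 ± 9.2 CPM, whereas the progenitor marker Nes went from 376 ± 10.9 to 201 ± 15.6 CPM and Cspg4 from 731 ± 34 to 396 ± 32.8 CPM. The marker genes were named after their values were seen. Of 10 immune cell markers, 1 had a mean of at least 1 FPKM, and the list summed to 1.37 to 2.76 CPM in DMSO and 6.69 to 7.2 CPM in FSK. That gene was Cd68, a lysosomal protein gene, which rose from 0.547 ± 0.121 to 4.73 ± 0.277 CPM (fitted log2 difference 3.11 ± 0.23, adjusted p = 3.74e-05). The defining leukocyte genes Ptprc and Itgam had 0 counts in all DMSO libraries and at most 12 and 4 counts in an FSK library. Other genes of the list did have counts. Cd3e was counted 75, 71 and 71 times in DMSO against 53, 86 and 76 times in FSK (adjusted p = 0.887). Csf1r was counted 0, 5 and 46 times against 46, 48 and 30 times (adjusted p = 0.372). Fcer1g was counted 12, 0 and 34 times against 31, 15 and 37 times (adjusted p = 0.541). Fibroblast markers summed to 299 to 358 CPM in DMSO and 233 to 254 CPM in FSK. Most of that sum was Pdgfra, at 287 ± 26.4 and 199 ± 8.16 CPM. Of the 4 tested, 1 rose (Pdgfrb) and 2 fell (Pdgfra and Col1a1). Dcn and Lum had 0 counts in all DMSO libraries and at most 8 and 4 counts in an FSK library. Endothelial markers summed to 1.67 to 2.01 CPM in DMSO and 0.709 to 1.15 CPM in FSK, with Cdh5 and Cldn5 at 0. Most of that sum was Tek, which fell from 1.59 ± 0.0975 to 0.695 ± 0.264 CPM (-1.19 ± 0.34, adjusted p = 0.0257). The part of other cells in these results was not tested.

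The other ligand genes named here were low in both groups. Cntf, the ciliary neurotrophic factor gene, had 0.84 ± 0.398 CPM in DMSO and 0.691 ± 0.381 CPM in FSK (adjusted p = 0.718). Ctf1, the cardiotrophin gene, was counted 0, 17 and 34 times in DMSO against 42, 42 and 53 times in FSK (1.55 ± 1.01, adjusted p = 0.262). With limma on log2(FPKM + 1) Ctf1 had an adjusted p of 0.0457, and over all alternatives the adjusted p ran from 0.0457 to 0.422. Osm, which lies in the same cytokine subfamily as Lif, had 4 counts in 1 DMSO library and 0 elsewhere.

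Over all 11 pathway lists, 28 of 104 tested genes rose (26.9%) and 22 fell (21.2%), beside 19.6% and 19.8% of all tested genes. Their median log2 fold change was -0.02, beside -0.01 for all tested genes. The lists held 126 genes other than the 10, of which 122 were found in the table; some, such as Mcl1, Serpina3n and Il31, are not analysed here. The direction differed from list to list.

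Of 9 kinases and adaptors, 2 rose and 3 fell (median -0.04). Jak1, the principal kinase bound to gp130, fell from 174 ± 10.7 to 135 ± 0.847 CPM (fitted log2 difference -0.36 ± 0.06, adjusted p = 0.00176). Ptpn11, which encodes the phosphatase and adaptor SHP2 and was named after its values were seen, rose by 0.34 ± 0.06 (adjusted p = 0.00215). Jak2 was at -0.43 ± 0.15 (adjusted p = 0.0463), Jak3 at 0.41 ± 0.12 (0.0258) and the Ras exchange factor gene Sos1 at -0.38 ± 0.10 (0.0194). Tyk2 had 44.8 ± 1.81 and 51.4 ± 5.08 CPM (0.20 ± 0.08, adjusted p = 0.0973), and passed without FSK replicate 1 (adjusted p = 0.022). The Jak2 call was lost without each library except DMSO replicate 2 (adjusted p 0.0584 to 0.144). The Jak3 call was lost without DMSO replicate 2, FSK replicate 2 or FSK replicate 3 (0.0507 to 0.0893). The Sos1 call was lost without DMSO replicate 2, FSK replicate 1 or FSK replicate 3 (0.0562 to 0.0661). Counting the other settings too, the call was lost in 10 of 13 alternatives for Jak2, with the replicate block (0.113) and the limma fits (0.0555 to 0.09) among them, in 6 for Jak3 and in 4 for Sos1.

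Of 5 other STAT genes tested, 1 passed (median -0.03). That was Stat5a, the neighbour of Stat3, with 47.1 ± 5.01 CPM in DMSO and 57.8 ± 4.73 CPM in FSK (log2 fold change 0.29 ± 0.10, adjusted p = 0.0399). Its call was kept without replicate 1 of either group and lost without any of the other 4 libraries, DMSO replicates 2 and 3 and FSK replicates 2 and 3 (0.0609 to 0.126). In all it was lost in 9 of 13 alternatives, which include edgeR without an expression filter (0.0527), the limma fits (0.0844 to 0.113) and the replicate block (0.094).

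Of 14 other SOCS, PIAS and phosphatase genes that restrain the pathway, 1 rose and 4 fell (median -0.13). Cish, a SOCS-family inhibitor best known downstream of STAT5, rose from 8.45 ± 1.13 to 18.3 ± 0.762 CPM (fitted log2 difference 1.11 ± 0.12, adjusted p = 0.00024). Ptpn6, the gene of the phosphatase SHP1, fell from 13 ± 0.984 to 7.38 ± 0.445 CPM (-0.81 ± 0.11, adjusted p = 0.000848). The other falls were small: Pias1 (-0.42 ± 0.13, adjusted p = 0.0329), Pias2 (-0.25 ± 0.07, 0.0306) and Socs5 (-0.22 ± 0.05, 0.0145), the last named after its values were seen. Each of these 3 lost its call without FSK replicate 3 (0.102, 0.083 and 0.0533). Pias1 lost it also without each other library except DMSO replicate 1 (0.0534 to 0.105), Pias2 without DMSO replicate 2 (0.0947) or FSK replicate 1 (0.0758), and Socs5 without FSK replicate 2 (0.0642). With the replicate block the calls of Pias1 (0.0817) and Pias2 (0.081) were lost as well, and with limma without a filter that of Pias1 (0.0525). Socs1, the closest relative of Socs3 in action, had 19 ± 4.06 and 23.2 ± 2.5 CPM (adjusted p = 0.194).

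Of 5 genes that shed receptors from the cell surface or restrain shedding, 1 rose (median -0.02). It was Rhbdf1, a rhomboid-like partner of the sheddase ADAM17, from 139 ± 9.65 to 213 ± 15.2 CPM (fitted log2 difference 0.62 ± 0.07, adjusted p = 0.000414). Adam17 itself, which releases soluble IL-6 receptor, had 79.9 ± 10.1 and 72 ± 3.62 CPM (-0.15 ± 0.09, adjusted p = 0.236).

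Genes reported elsewhere as STAT3 targets went both ways: of 19 tested, 9 rose and 7 fell (median 0.28). Fos (log2 fold change 2.87 ± 0.12, adjusted p = 2.24e-06), the C/EBP genes Cebpb (1.58 ± 0.09, 7.9e-06) and Cebpd (1.08 ± 0.08, 3.42e-05), and Myc (1.25 ± 0.05, 2.28e-06) rose. Pim1, a survival kinase gene, fell from 8.91 ± 0.972 to 4.52 ± 0.556 CPM (-0.98 ± 0.15, adjusted p = 0.00143). Named after their values were seen, Il4r (-0.72 ± 0.08, 0.000215), Pim3 (-0.64 ± 0.07, 0.000202) and the cyclin gene Ccnd1 (-0.49 ± 0.05, 0.000162) also fell. Among the 9 rises was Hif1a (0.32 ± 0.10, 0.0345), likewise named after its values were seen. The Hif1a call was lost in 9 of 13 alternatives, among them without each library except DMSO replicate 3 (0.0518 to 0.122).

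Of 6 tested acute-phase genes, which the liver makes in response to IL-6, 4 rose and 0 fell by the edgeR test (median 1.16). The complement gene C3 rose from 4.94 ± 0.391 to 34.4 ± 1.29 CPM (fitted log2 difference 2.80 ± 0.10, adjusted p = 1e-06). The lipopolysaccharide-binding protein gene Lbp (1.26 ± 0.13, 0.000202), the haptoglobin gene Hp (1.17 ± 0.23, 0.00496) and the lipocalin gene Lcn2 (0.56 ± 0.14, 0.0138) rose too. With limma without a filter Lcn2 had an adjusted p of 0.0517. A further 7 genes of the list, the fibrinogen genes Fga, Fgb and Fgg, Crp, Hamp, Orm1 and Steap4, reached no more than 15 counts per library and were too low to test.

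Of 19 tested genes for transcription factors that act on cytokine promoters, or for their inhibitors, 7 rose and 1 fell (median 0.04). Cebpb went from 33.2 ± 3.14 to 99.1 ± 7 CPM and Cebpd from 60.7 ± 2.1 to 129 ± 13.1 CPM. Crem, the cAMP response modulator gene, stood at 0.76 ± 0.19 (adjusted p = 0.0147), a call lost without FSK replicate 2 (0.0511) or FSK replicate 3 (0.0579), and with limma without a filter (0.053). The stress factor gene Atf3 was the fall, from 12 ± 0.839 to 3.43 ± 0.737 CPM (-1.80 ± 0.18, adjusted p = 0.00015). The NF-kB genes Rela (0.34 ± 0.06, 0.00193) and Nfkb2 (0.32 ± 0.05, 0.00205), named after their values were seen, rose slightly. Nfkbia, a rapid NF-kB target and inhibitor, had 79.2 ± 1.9 and 75.2 ± 3.55 CPM (adjusted p = 0.336).

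Of 10 genes for factors that bind cytokine mRNAs and set their decay, 3 rose and 4 fell (median -0.11). Hnrnpd, which encodes AUF1, fell from 218 ± 7.19 to 161 ± 10.5 CPM (fitted log2 difference -0.43 ± 0.06, adjusted p = 0.001). Within the tristetraprolin family, Zfp36l2 fell (-0.49 ± 0.07, 0.00114) and Zfp36l1 rose (0.35 ± 0.07, 0.00527). Zfp36, the gene of tristetraprolin itself, named after its values were seen, was at 0.33 ± 0.10 (0.0277). Its call was lost in 9 of 13 alternatives, among them without each library except DMSO replicate 3 (0.0607 to 0.0959). The Roquin paralog gene Rc3h2 was at -0.59 ± 0.15 (0.0175), and lost its call without DMSO replicate 2 (0.0566) or DMSO replicate 3 (0.0608). Khsrp (-0.24 ± 0.07, 0.0331) and Zc3h12a (0.23 ± 0.06, 0.0176), named after their values were seen, complete the 7 calls. Khsrp lost its call in 4 of 13 alternatives (0.0515 to 0.128) and Zc3h12a in 3 (0.0543 to 0.062).

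Of 13 other cytokine genes tested, 2 rose and 2 fell (median -0.30). Csf2, the GM-CSF gene, was counted 18, 14 and 28 times in DMSO against 52, 53 and 108 times in FSK (log2 fold change 1.90 ± 0.50, adjusted p = 0.018). That call was lost without DMSO replicate 2 (0.0604) or FSK replicate 3 (0.0886). The alarmin gene Il33 rose from 565 ± 47.1 to 858 ± 72.1 CPM (0.60 ± 0.08, 0.000666). Kitlg (-0.60 ± 0.14, 0.0113) and Csf1 (-0.23 ± 0.06, 0.0122), which encode the stem cell factor and the macrophage colony-stimulating factor, fell. Tnf and Il1b, upstream inducers of Il6 in glia, had at most 28 counts in a library.

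**Figure D4:**
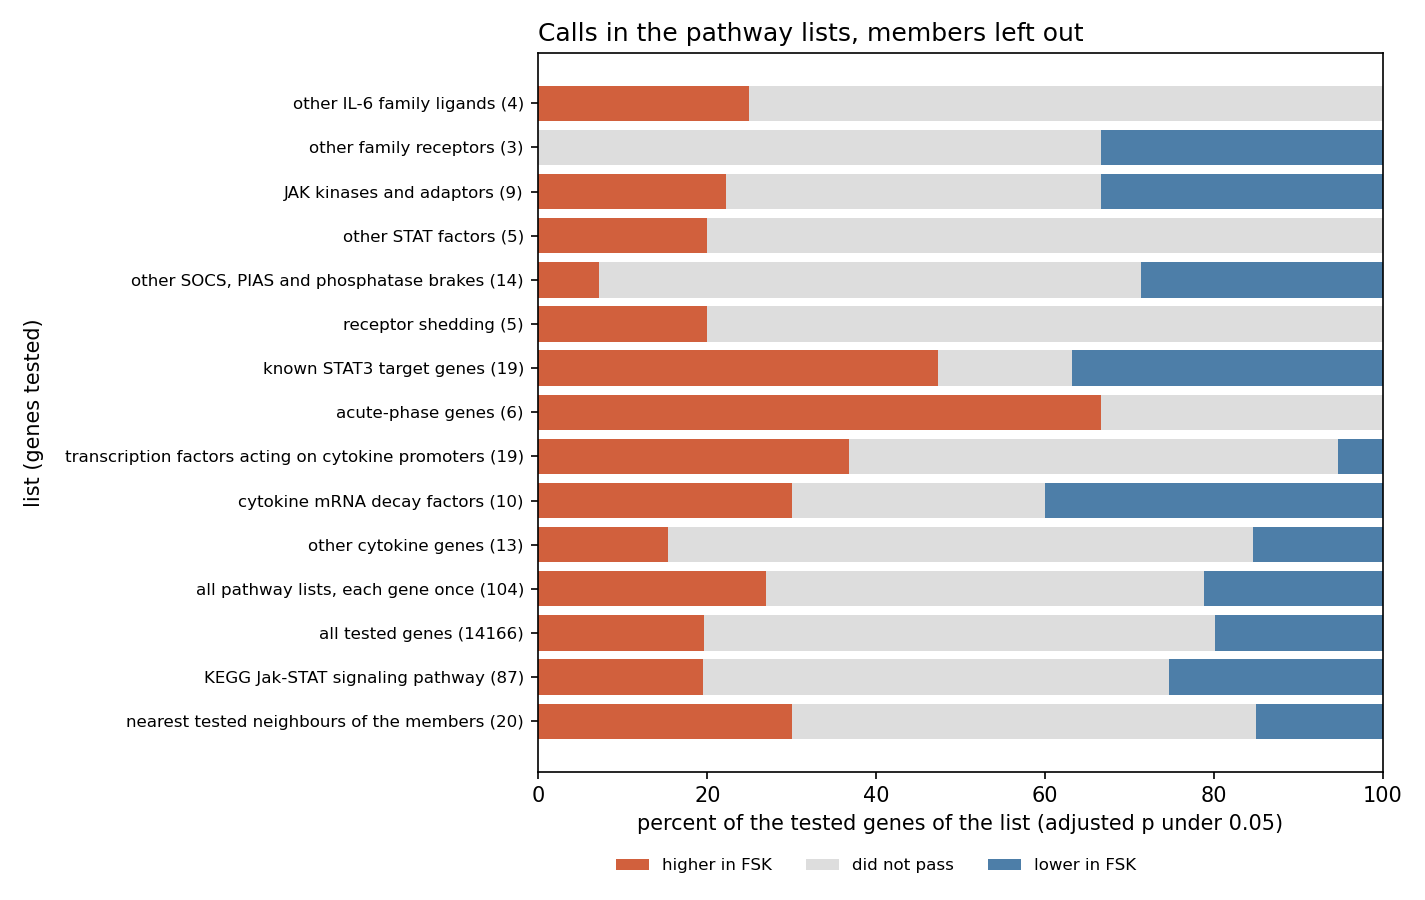
Share of tested genes in each list that were higher in FSK, lower in FSK or did not pass (edgeR, adjusted p under 0.05), with the 10 genes left out and the number tested in brackets. The bar of all pathway genes has 26.9% higher and 21.2% lower, beside 19.6% and 19.8% for all tested genes.

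The KEGG Jak-STAT annotation of the table gave a list that was not assembled for this work, though 46 of its genes are on the pathway lists too. Of its 141 genes other than the 9 members annotated there, 87 were tested, and 17 rose (19.5%) and 22 fell (25.3%), with a median log2 fold change of -0.07. Without DMSO replicate 2 the falls numbered 13. The largest rises were Gfap, the astrocyte filament gene (3.46 ± 0.06, adjusted p = 5.15e-08), Csf2 and Myc. Pim1 and the growth factor gene Pdgfa were among the largest falls (Pdgfa -0.90 ± 0.06, 2.77e-05).

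The genes beside the cytokine genes had smaller differences. Of the 20 nearest tested genes, 1 on either side of each of the 10, 6 rose and 3 fell, beside 19.6% and 19.8% of all tested genes, and the largest of these 9 changes was a log2 fold change of 0.68. Csf3 lies 5.6 kb from the proteasome gene Psmd3 (-0.07 ± 0.06, adjusted p = 0.431) and 1 kb from the Mediator gene Med24 (0.25 ± 0.06, adjusted p = 0.00844). Il11 lies 13.7 kb from the ribosomal protein gene Rpl28 (0.26 ± 0.06, 0.0142) and 23.4 kb from the histone methyltransferase gene Kmt5c (0.06 ± 0.09, 0.618). Il6 has its nearest tested neighbours 268 kb away, at Dnajb6 (-0.06 ± 0.06, 0.459), and 74.7 kb away, at a gene under 1 CPM in both groups. Clcf1 lies 8.92 kb from the DNA polymerase subunit gene Pold4, which rose (0.68 ± 0.09, 0.000755), and 18.2 kb from Rad9a (-0.18 ± 0.11, 0.211). Lif lies 30.3 kb from Castor1, a gene under 1 CPM in both groups (0.25 ± 0.76, 0.822). On its other side the phosphatase gene Mtmr3, 201 kb away, fell (-0.42 ± 0.06, 0.000914).

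Around the signalling genes the called neighbours went both ways. Both neighbours of Il6st, both of Il11ra1 and the left neighbour of Socs3 did not pass (adjusted p 0.109 to 0.812). Socs3 lies 15.9 kb from Pgs1, which rose (log2 fold change 0.54 ± 0.07, adjusted p = 0.00054). Il6r lies between Ube2q1, which rose (0.47 ± 0.05, 0.000262), and Atp8b2, which fell (-0.54 ± 0.06, 0.000395). Stat3 lies 1.35 kb from Stat5a and 18.5 kb from the caveolar gene Cavin1, which fell (-0.46 ± 0.05, 0.00027).

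**Figure D5:**
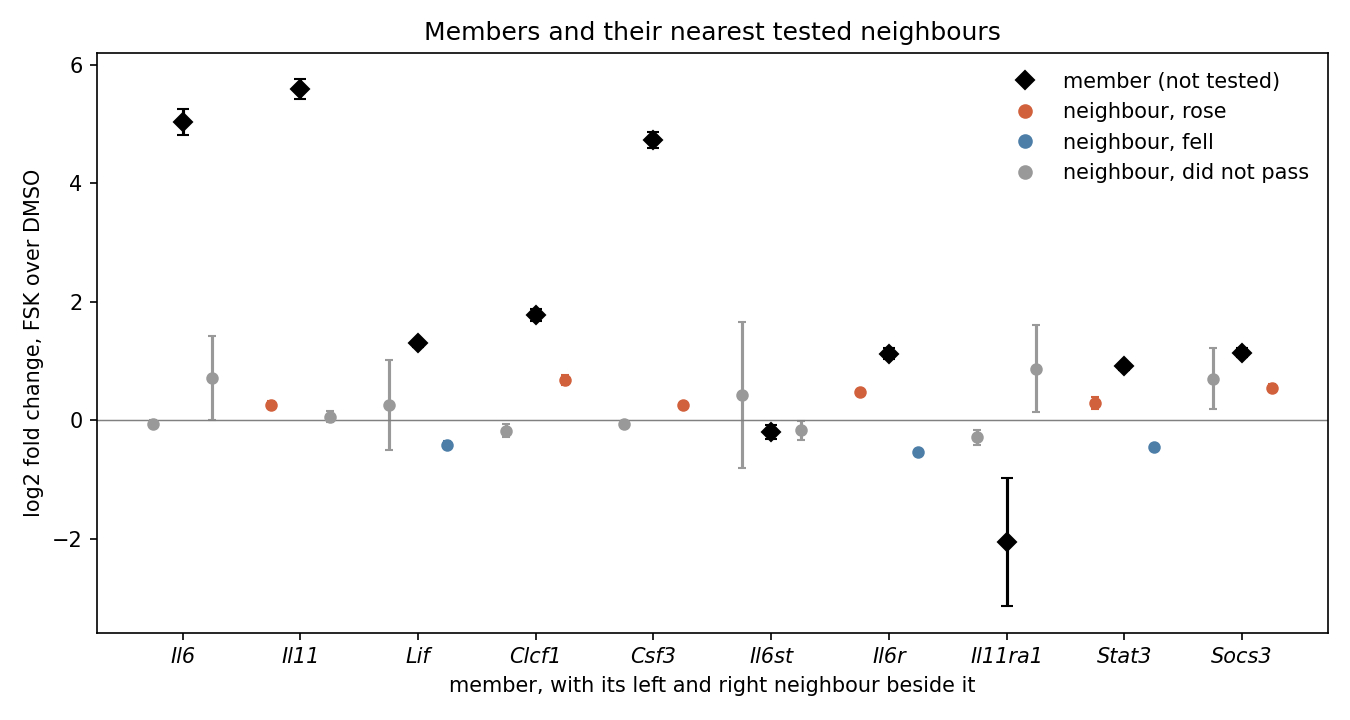
Log2 fold change, FSK over DMSO, with its SE. Diamonds are the 10 genes, labelled not tested because no test result is read for them. Circles are the nearest tested gene on the left and right of each, coloured by call. Il6, Il11 and Csf3 lie between 4.73 and 5.58, and the called neighbours between -0.54 and 0.68.

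The genes whose log2 CPM over the 6 libraries was most like that of the leading cytokines are given by Pearson's r, as a description. With 6 points in 2 groups r is set mostly by the group difference, and 312 to 365 genes had an r over 0.99 with each cytokine gene. For Csf3 they were the metalloproteinase gene Mmp10 (r = 0.9997), which went from 1.63 ± 0.422 to 76.8 ± 1.09 CPM, Hexim1 and the lactate dehydrogenase gene Ldha. For Il6 they were the zinc transporter gene Slc39a6 (r = 0.9999), Porcn and the superoxide dismutase gene Sod2. For Il11 they were the ERK phosphatase gene Dusp6 (r = 0.9997), Serpinf1 and Gpr155, and for Lif the inhibitor gene Timp2 (r = 0.9999), Scamp5 and Zfand2a.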

How the data were processed

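The deposited table gives whole-number counts and FPKM values per gene, both so named per the file headers, for 6 libraries. The submitters' processing notes name cutadapt, HISAT2, StringTie, edgeR, DESeq2 and the build Rnor_6.0, with no tool version; the sources used here do not give what 1 count is or the strand rule. The authors wrote an FPKM of 0.0001 where the count is 0.

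The main test on these counts was that of edgeR 4.0.16 under R 4.3.3 (TMM, filterByExpr, quasi-likelihood test, FSK against DMSO, no block), with Benjamini-Hochberg adjustment over the 14166 genes that passed the filter. Fold changes are log2, FSK over DMSO, ± an SE taken from the F statistic; CPM and FPKM are mean ± SD (n = 3). Library totals were 72.1 to 80 M counts, the biological coefficient of variation 20.8%, and chi-square over its degrees of freedom between replicates was 31.2 to 56.5, above sampling noise. The limit for a count of 0 is 3 counts and covers counting error only. The labels do not say that replicates are separate cultures, so the p-values reflect only how far these samples vary, and that variation may be technical. The test was also run on simulated counts in which 200 genes were changed, fewer than were called in these data. No result is drawn from that run.

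The 10 genes, the lists, and the tests were chosen with earlier results of these data known. Named genes are the 10, up to 4 called genes per list with the largest fold change and at least 1 FPKM, a set of receptor, ligand and kinase genes, the nearest tested neighbours, the 3 genes most like each of 4 cytokine genes, and the 3 largest KEGG rises and falls; some results for genes under this rule are not reported here. Further genes are said to have been named after their values were seen, and Cd68, Socs1, Adam17, Nfkbia, Tnf and Il1b were as well. Alternatives were DESeq2 1.42.0, its size factors, no filter, limma 3.58.1 on log2 FPKM with pseudocounts of 1 and 0.1, a block on the replicate number, and each library left out in turn.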

Additional observations from a re-analysis of the deposited data

How the results depend on the processing

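Over 13 alternatives, 2160 to 3018 genes rose and 2076 to 3390 fell, beside 2772 and 2804. Leaving out 1 library gave 2169 to 2667 rises and 2076 to 2738 falls. For the other pathway genes, 21 to 29 rose and 17 to 23 fell without 1 library, and for the KEGG list 12 to 18 rose and 13 to 21 fell. For the neighbours, 5 to 6 rose and 3 fell. Of 78 genes outside the 10 that were refitted under each alternative, 60 kept their call in every alternative run, and 0 reversed.

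With the replicate block, 24 pathway genes rose and 19 fell, 15 and 16 KEGG genes, 5 and 3 neighbours, and 2160 and 2165 genes in all. Same-numbered libraries did not deviate together (correlations -0.081, 0.008 and -0.104), and pairs with different numbers had -0.018 to 0.098. With 3 libraries per group this cannot settle whether same-numbered samples were handled together, which the labels do not say. On the log2(FPKM + 1) scale, which understates changes of low genes, the differences of Il6, Il11 and Csf3 were as low as 2.39, 4.19 and 4.36. Depth limits Il11ra1, Lifr, Ctf1 and Cntfr, with at most 60 counts in a library.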
